A study of Bos indicus with 6 samples.

Results

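Axonemal dyneins and the other proteins of the motile ciliary axoneme were followed in RNA-seq of the bovine isthmus, the part of the oviduct next to the uterus. Members were chosen by symbol, under a rule written with earlier results of these data known. The rule took the families DNAH, DNAI, DNAL, TEKT, RSPH and DNAAF with a number after the name. It also took SPEF1, SPEF2, DNALI1, HYDIN, SPAG6, SPAG16, SPAG17, CCDC39, CCDC40, ROPN1L, PIFO, ZMYND10, LRRC6 and ARMC4. This gave 41 of the 24616 genes in the table, and 1 symbol of the rule, HYDIN, matched no gene name. The study compared multiparous Nelore (Bos indicus) cows managed to ovulate a larger follicle and form a larger corpus luteum (LF/LCL, n = 3) with cows managed to ovulate a smaller follicle (SF/SCL, n = 3). Every cow received estradiol benzoate, a progesterone-releasing device, prostaglandin at device removal and a GnRH injection. Only the LF/LCL cows also received prostaglandin when the device was inserted, and their device was removed 42 h before GnRH, against 30 h before GnRH in the SF/SCL cows. Tissue was collected on day 4 after GnRH, on the side of the corpus luteum, and each cow gave 1 library. The authors had ranked the animals and sequenced the extremes, so the 6 cows do not stand for unselected animals of each protocol.

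The motile cilium is built on an axoneme of outer doublet microtubules around a central pair. Outer and inner dynein arms on the doublets make the microtubules slide, radial spokes and the central apparatus regulate the stroke, and tektins line the inside of the doublet wall. In the oviduct these cilia are carried by multiciliated cells of the epithelium, which work with the muscle layer in moving gametes and embryos. Dynein arms are preassembled in the cytoplasm by dedicated factors before they enter the cilium.

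The libraries held 23899117 to 34193164 uniquely mapped reads on genes. Values are normalised read counts, that is reads divided by the size factor of the library, and are not corrected for gene length, so levels of different genes are not compared. All 19 general epithelial genes and all 13 smooth muscle genes were above 0 in every library, which does not test the position within the oviduct. OVGP1, the oviductal glycoprotein of secretory cells, separated the libraries in another way, with 287, 1782 and 1950 normalised reads in LF/LCL cows 617, 79 and 527, and 271794, 730 and 325158 in SF/SCL cows 856, 489215 and 97. Cows 856 and 97 were thus far above the other 4, and whether this reflects where the tissue was taken was not tested. The SF/SCL library of cow 489215 stood apart from the other 5. Its ribosomal protein genes lay above all 3 LF/LCL cows in 83 of 86 cases, with a median log2 difference of 1.35 from the LF/LCL mean, whereas the same median was 0.030 in cow 97 and -0.016 in cow 856. Conversely, 33 of 35 genes outside the members that are known for very long transcripts, a list chosen after the member values were seen, lay below all LF/LCL cows in cow 489215, with a median log2 difference of -1.14. Counts of member calls are therefore given with and without this library.

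Of the 41 members, 37 passed the filter on low values and were tested. Across all 6 libraries 0 members differed between the groups at an adjusted p under 0.05 in limma with Benjamini-Hochberg adjustment, and 0% of the 15387 genes tested passed. The lowest adjusted p of a member in limma was 0.397. At an unadjusted p under 0.05, limma gave 5 members higher in SF/SCL, against 4.19% of all genes called in that direction, and 0 members lower, against 4.48%. These were DNAI1, ROPN1L, RSPH9, CCDC39 and LRRC6. Fitted differences lay above 0 in 30 of 37 members, against 48.6% of all genes. Their median log2 difference, SF/SCL over LF/LCL, was 0.35 against -0.016 for all genes, but it turned to -0.066 when values were scaled to the epithelial markers, a scaling that moved the median of all genes to -0.43. On the recovered reads, the edgeR quasi-likelihood test also called 0 members and 0 genes, with 5 members and 1307 genes (8.49%) at an unadjusted p under 0.05. DESeq2 called 3 members higher (DNAI1, ROPN1L and LRRC6), against 1.35% of all genes called higher.

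The 3 SF/SCL cows did not form one level. Cows 856 and 97 both exceeded all 3 LF/LCL cows in 33 of 37 members, against 26.9% of all genes tested, and the exceptions were DNAH17, DNAL4, TEKT4 and SPEF2. They both lay below all LF/LCL cows in 0 members, against 25% of all genes. The mean of this pair was 1.83 times the LF/LCL mean at the median member, from 0.771 times for DNAH17 to 3.43 times for DNAH5. Cow 489215 was instead the lowest of all 6 cows in 24 of 37 members, against 35.7% of all genes. In 6 members (16.2%) all 3 SF/SCL cows lay above all LF/LCL cows, against 9.51% of all genes: DNAI1, ROPN1L, RSPH3, RSPH9, CCDC39 and LRRC6. No member, against 8.6% of all genes, had all 3 SF/SCL cows below all LF/LCL cows. In whole tissue, fewer cells of a type and less RNA per cell cannot be told apart.

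**Figure D1:**
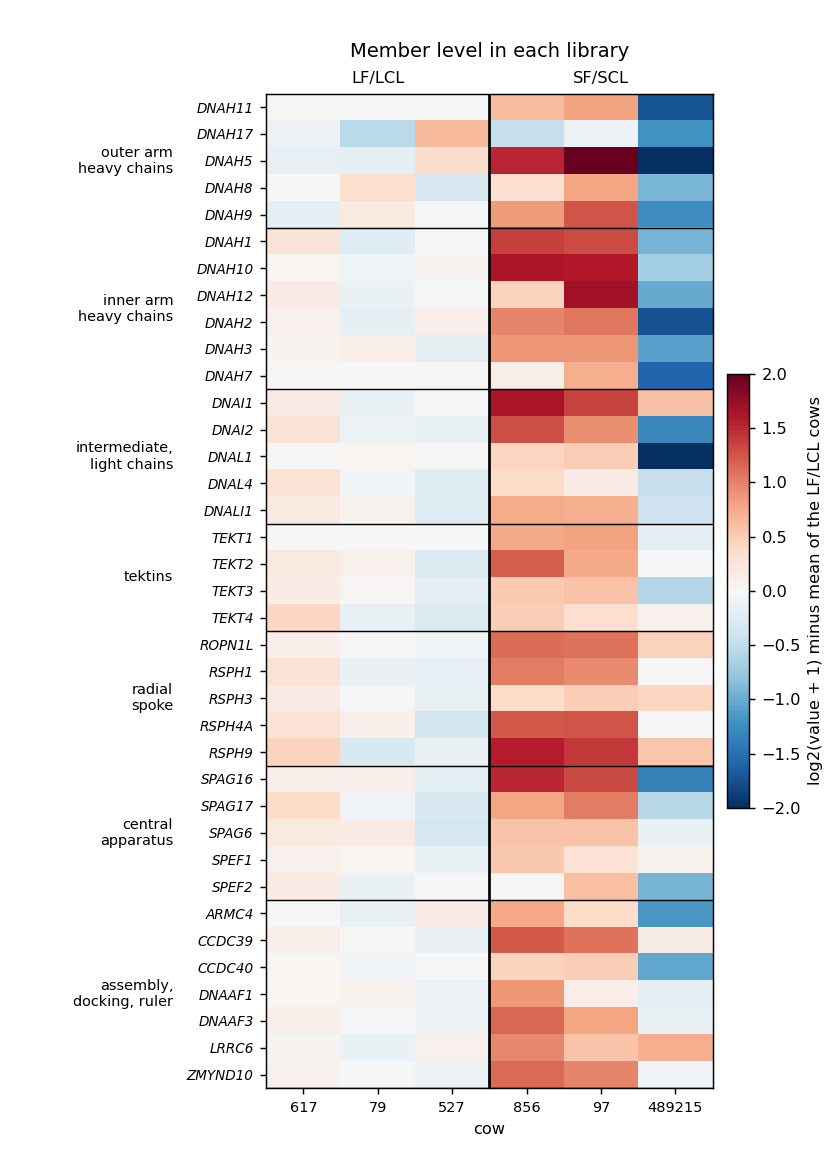
Heat map of the 37 members tested (vertical axis, grouped by role) in the 6 cows (horizontal axis), where colour gives log2(value + 1) minus the mean of the 3 LF/LCL cows. Cows 856 and 97 are above the LF/LCL cows in 33 of 37 members, and cow 489215 is the lowest of the 6 cows in 24.

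The heavy chains carry the motor of each dynein arm. DNAH9 (ENSBTAG00000022509), an outer arm motor of the distal cilium, had 3549, 4609 and 3968 normalised reads in LF/LCL cows 617, 79 and 527, and 7237, 1697 and 9611 in SF/SCL cows 856, 489215 and 97. The SF/SCL group thus held both the highest pair of values and the lowest value. The log2 difference was 0.29 with a standard error of 0.63 (adjusted p = 0.927 in limma). DNAH5, the other main outer arm heavy chain of airway cilia, had 2243, 2206 and 3184 normalised reads in the LF/LCL cows and 7185, 626 and 10273 in SF/SCL cows 856, 489215 and 97, the widest spread of any member. It is named here after its values were seen. DNAH17 (ENSBTAG00000000920), an outer arm heavy chain best known from the sperm flagellum, had values of 80.6, 60.1 and 138 in LF/LCL and 63.0, 37.3 and 80.2 in SF/SCL, in the same order of cows. Its pair of higher SF/SCL values lay inside the LF/LCL range, and its log2 difference was -0.60 with a standard error of 0.47 (adjusted p = 0.821 in limma).

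Among the inner arm heavy chains, DNAH7 (ENSBTAG00000016784) was even across the LF/LCL cows, at 2797, 2817 and 2855 normalised reads. Its SF/SCL values were 3066 in cow 856, 941 in cow 489215 and 4681 in cow 97, on both sides of the LF/LCL values. The log2 difference of -0.24 had a standard error of 0.56 (adjusted p = 0.932 in limma), and it changed sign to 0.020 in edgeR and to 0.42 without cow 489215. DNAH10 (ENSBTAG00000016523) had 1061, 970 and 1076 normalised reads in LF/LCL cows 617, 79 and 527, and 3187, 646 and 3154 in SF/SCL cows 856, 489215 and 97. Cows 856 and 97 were close to each other and far above every LF/LCL cow, while cow 489215 was below them. The log2 difference over all 6 cows was 0.85 with a standard error of 0.62 (adjusted p = 0.797 in limma). The remaining inner arm heavy chains tested, DNAH1, DNAH2, DNAH3 and DNAH12, showed the same order, with cows 856 and 97 highest and cow 489215 lowest of the 6.

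The next role holds intermediate and light chains of the arms. Intermediate chains lie at the base of the arms and help link the motors to the doublets. DNAI1 (ENSBTAG00000008538), an outer arm intermediate chain, had 588, 475 and 510 normalised reads in LF/LCL cows 617, 79 and 527, and 1621, 783 and 1328 in SF/SCL cows 856, 489215 and 97. All 3 SF/SCL cows exceeded all LF/LCL cows. Its log2 difference was 1.19 with a standard error of 0.31, with an adjusted p of 0.405 in limma and 0.0195 in DESeq2. DNAI2 (ENSBTAG00000016732), the partner of DNAI1 in the same arm, had 1278, 996 and 965 normalised reads in LF/LCL and 2628, 438 and 2049 in SF/SCL. Here cow 489215 fell below the LF/LCL range, and the log2 difference was 0.31 with a standard error of 0.66 (adjusted p = 0.923 in limma). Thus in cow 489215 DNAI1 lay above and DNAI2 below all LF/LCL cows. DNAL1, an outer arm light chain, was at 180 normalised reads in cow 489215, against 702 to 731 in the LF/LCL cows. For DNALI1, an inner arm light intermediate chain, and DNAL4, cow 489215 was also the lowest of the 6.

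Tektins are filaments of the doublet wall. TEKT1 (ENSBTAG00000007437) had 1506, 1531 and 1518 normalised reads in LF/LCL cows 617, 79 and 527, and 2558, 1341 and 2650 in SF/SCL cows 856, 489215 and 97. The LF/LCL cows were almost equal, cows 856 and 97 were higher, and cow 489215 was slightly lower. TEKT2 (ENSBTAG00000021714) had values of 665, 615 and 474 in LF/LCL and 1337, 566 and 982 in SF/SCL, with cow 489215 inside the LF/LCL range. The log2 differences were 0.46 with a standard error of 0.29 for TEKT1 and 0.65 with a standard error of 0.35 for TEKT2 (adjusted p = 0.754 and 0.692 in limma). TEKT3 and TEKT4 ranged from 168 to 376 and from 172 to 292 normalised reads.

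Radial spokes reach from the doublets towards the central pair. RSPH9 (ENSBTAG00000009549), a spoke head protein, had 394, 232 and 259 normalised reads in LF/LCL cows 617, 79 and 527, and 850, 421 and 768 in SF/SCL cows 856, 489215 and 97. The groups did not overlap, although cow 489215 was close to the highest LF/LCL cow. The log2 difference was 1.18 with a standard error of 0.36 (adjusted p = 0.442 in limma). ROPN1L (ENSBTAG00000003539), a spoke stalk protein of the ropporin family, had 1329, 1234 and 1172 normalised reads in LF/LCL and 2693, 1720 and 2644 in SF/SCL, again without overlap. Its log2 difference was 0.89 with a standard error of 0.23, with an adjusted p of 0.397 in limma and 0.0299 in DESeq2. The paper, from these same libraries, had already listed ROPN1L under terms enriched in the SF/SCL isthmus. Among the radial spoke genes, 0 of 5 tested members had cow 489215 below all LF/LCL cows, against 40.9% of all genes tested. All 5 had cows 856 and 97 above all LF/LCL cows, against 26.9% of all genes tested. The median log2 difference of the 5 was 0.82 over all 6 cows.

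The central apparatus surrounds the central pair. SPAG6 (ENSBTAG00000033291), one of its armadillo repeat proteins, had 3343, 3260 and 2280 normalised reads in LF/LCL cows 617, 79 and 527, and 4317, 2665 and 4311 in SF/SCL cows 856, 489215 and 97. Cow 489215 lay between LF/LCL cows. SPAG16 (ENSBTAG00000018549), which binds SPAG6, had low values of 27.2, 27.2 and 21.96 in LF/LCL and 73.7, 9.32 and 65.0 in SF/SCL. The log2 differences were 0.33 with a standard error of 0.27 for SPAG6 and 0.49 with a standard error of 0.80 for SPAG16 (adjusted p = 0.831 and 0.908 in limma). SPAG17, SPEF1 and SPEF2, further proteins of this structure, had log2 differences of 0.42, 0.30 and -0.10, and SPEF2 was the member of the role in which cow 856 lay inside the LF/LCL range.

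The last role gathers factors that assemble dynein arms, dock them or set their spacing. LRRC6 (ENSBTAG00000010548), a cytoplasmic assembly factor, had 632, 551 and 641 normalised reads in LF/LCL cows 617, 79 and 527, and 1185, 1009 and 905 in SF/SCL cows 856, 489215 and 97. The groups were well apart and cow 489215 stood between the other SF/SCL cows. Its log2 difference was 0.76 with a standard error of 0.20, with an adjusted p of 0.405 in limma and 0.0210 in DESeq2. ZMYND10 (ENSBTAG00000020965), which works with LRRC6 in assembly, had 1961, 1865 and 1734 normalised reads in LF/LCL and 4052, 1791 and 3645 in SF/SCL, with cow 489215 inside the LF/LCL range. CCDC39 (ENSBTAG00000001969) is a part of the ruler that sets the repeat along the doublet, and it had 1706, 1570 and 1436 normalised reads in LF/LCL and 3649, 1744 and 3317 in SF/SCL. Although CCDC39 did not overlap between the groups, cow 489215 exceeded the highest LF/LCL cow only narrowly. CCDC40, its partner in the ruler, had 646 normalised reads in cow 489215 against 1284 to 1365 in the LF/LCL cows, so that the pair parted in this library. Log2 differences were 0.69 for ZMYND10, 0.82 for CCDC39 and -0.036 for CCDC40 (adjusted p = 0.639, 0.514 and 0.987 in limma).

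Without cow 489215 the comparison gave another count. In limma, 24 of 37 members passed an adjusted p under 0.05 as higher in SF/SCL, against 10.3% of the 15495 genes then tested, and 0 members passed as lower, against 7.92%. The edgeR quasi-likelihood test on the recovered reads called 25 members higher, against 10.5% of genes, and 0 lower, against 7.63%. DESeq2 called 28 higher, against 13.6% of genes, and 0 lower, against 11.8%. Leaving out any of the other 5 cows in turn left 0 members past the threshold in limma. Without cow 489215 the SF/SCL group rests on 2 cows. The cow left out was the lowest of all 6 cows in 24 of 37 members. For those members its removal by itself raises the SF/SCL mean and narrows the SF/SCL spread. The calls without it are therefore not independent evidence of a group difference. The limma spread is pooled over these 2 cows and the LF/LCL cows and is moderated by that of other genes.

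Every role contributed calls to the limma fit without cow 489215. The calls were 3 of 5 outer arm heavy chains, 4 of 6 inner arm heavy chains and 4 of 5 intermediate and light chains. They also took in 2 of 4 tektins, 4 of 5 radial spoke genes, 2 of 5 central apparatus genes and 5 of 7 assembly, docking and ruler genes. DNAH5 had the largest log2 difference, 1.78 with a standard error of 0.21 (adjusted p = 0.00484 in limma), and DNAH10 followed with 1.61 and a standard error of 0.094 (adjusted p = 0.00148 in limma). DNAI1 and RSPH9 were both at 1.49, with standard errors of 0.15 and 0.24 (adjusted p = 0.00297 and 0.0110 in limma). Log2 differences in limma without cow 489215 were 1.05 for DNAH9, 1.11 for DNAI2, 0.46 for DNAL1, 0.78 for TEKT1, 0.98 for TEKT2 and 1.10 for ROPN1L, all past the threshold. So were those of SPAG16 at 1.41, SPAG17 at 0.91, CCDC39 at 1.15, CCDC40 at 0.47 and ZMYND10 at 1.05. LRRC6 barely moved, from 0.76 with all cows to 0.77 without cow 489215 (adjusted p = 0.0208 in limma). Members that did not pass in limma included DNAH7 at 0.42 (adjusted p = 0.141), SPAG6 at 0.56 (adjusted p = 0.0715) and RSPH3 at 0.43 (adjusted p = 0.0944). DNAH17, at -0.29 with a standard error of 0.40, was the one member below 0 (adjusted p = 0.650 in limma). The median over the members was 0.88, with 36 of 37 above 0, while the median of all genes was near 0 and 49.9% of genes lay above it.

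**Figure D2:**
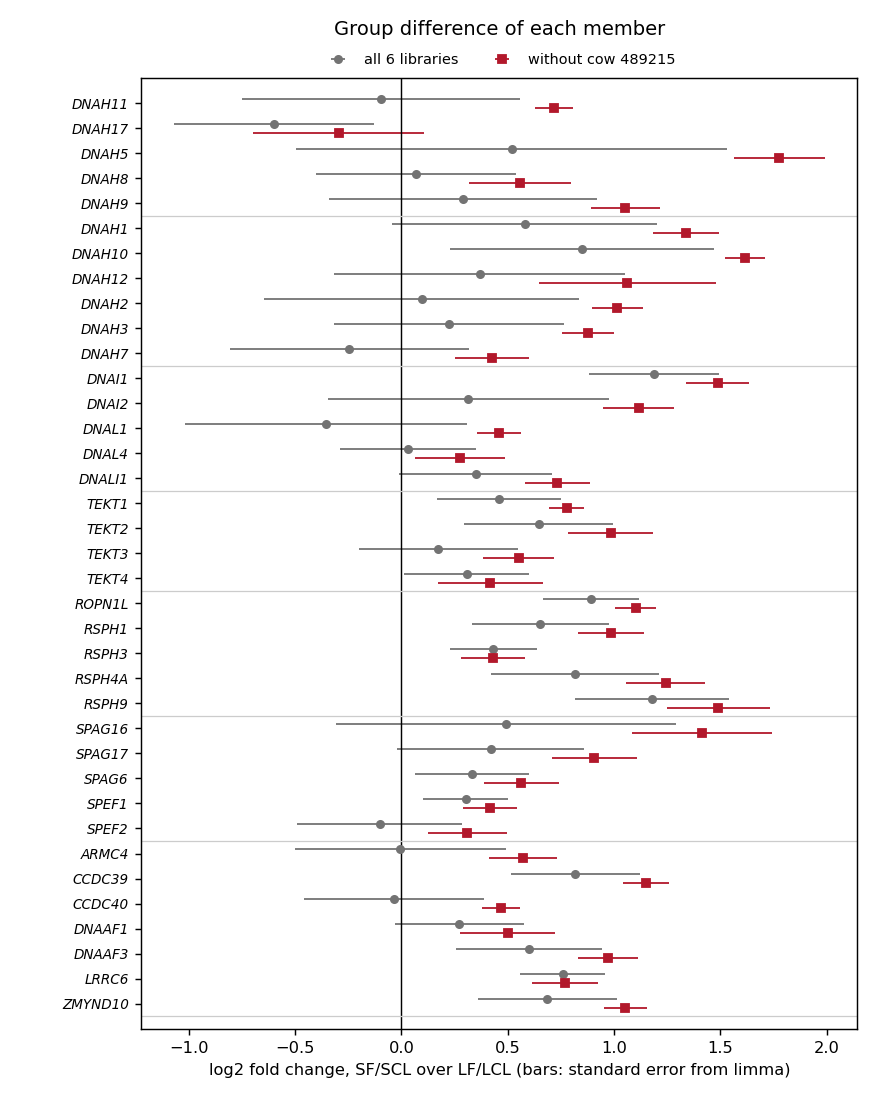
Log2 fold change, SF/SCL over LF/LCL, of each member tested (horizontal axis), with all 6 libraries in grey and without cow 489215 in red, and with bars of 1 standard error from limma. Without cow 489215 the median moves from 0.35 to 0.88, and DNAH17 alone stays below 0.

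The members kept similar relative levels in cows 856 and 97. Cows 856 and 97 differed by a median absolute log2 value of 0.17 over the 37 members, with 20 of them higher in cow 856, and the largest gap was 1.23 for DNAH12. Between LF/LCL cows the same median absolute difference was 0.14 to 0.23. Without cow 489215, the SD of log2 values over the 5 cows had a median of 0.49, and it was 0.23 after the mean of the members in each cow was subtracted. TEKT1 followed the members' mean most closely, with a remaining SD of 0.090, and DNAH17 least, with 0.78.

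As a share of the library, the members took 0.163%, 0.153% and 0.152% of all reads in LF/LCL cows 617, 79 and 527, and 0.300%, 0.0829% and 0.321% in SF/SCL cows 856, 489215 and 97. The 95% Wilson interval in cow 489215 was 0.0818% to 0.0840%, and it covers counting error only, as do the other intervals and floors given here. Heavy chains supplied 37.2%, 40.4% and 43.5% of the members' reads in the LF/LCL cows, 41.4% in cow 856 and 48.2% in cow 97. In cow 489215 they supplied 22.5% (95% Wilson interval 21.9% to 23.0%). All 11 heavy chains tested lay below every LF/LCL cow there, at a median of 0.420 times the LF/LCL mean and from 0.246 times for DNAH5 to 0.623 times for DNAH10. Of all genes tested, 40.9% lay below and 42.6% above every LF/LCL cow in cow 489215. Of the other 26 members, 13 lay below, 7 within and 6 above the LF/LCL range in this cow, with a median of 0.902 times the LF/LCL mean. The heavy chains have very long transcripts, and the part of the shift of long transcripts in cow 489215, given above, in their low values was not tested. In cows 856 and 97 the same list of very long genes had median log2 differences of 0.38 and 0.40 from the LF/LCL mean, and without cow 489215 limma called 12 of its 35 genes higher and 2 lower.

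**Figure D3:**
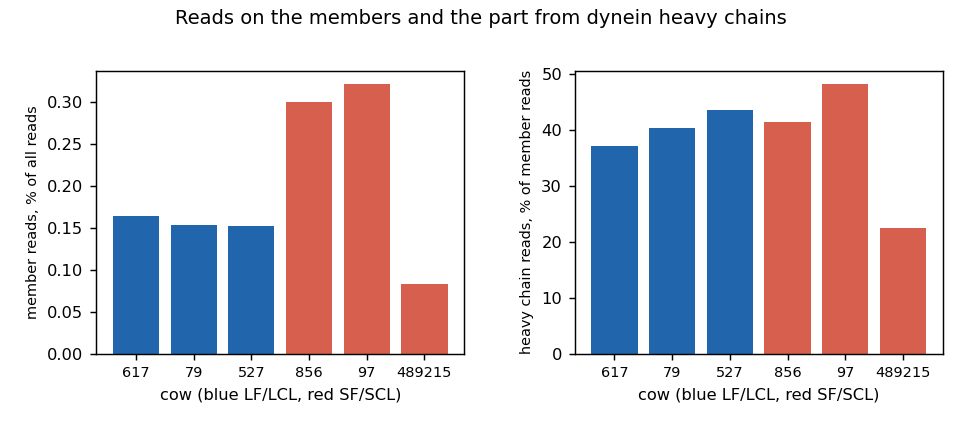
Reads on the members in percent of all reads (left panel) and heavy chain share of the members' reads in percent (right panel) for each cow. Cow 489215 has the lowest value in both, 0.0829% and 22.5%, and cows 856 and 97 have the highest shares of all reads, 0.300% and 0.321%.

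Axonemal genes outside the rule, such as docking, nexin-dynein and further spoke proteins, gave 50 tested of 51 listed. In limma with all cows 0 of them passed the adjusted threshold. At an unadjusted p under 0.05, 13 were higher and 0 lower, against 4.19% and 4.48% of all genes. The 13 include ROPN1, SPA17, CABYR and WDR92, which the paper had listed under terms enriched in the SF/SCL isthmus. That listing came from these same libraries, so the list is not independent of these data. Of the 50, 46 lay above 0, against 48.6% of all genes, with a median log2 difference of 0.38. Without cow 489215, 32 of the 50 passed in limma as higher and 0 as lower, against 10.3% and 7.92% of genes. In cow 489215 itself, 21 of the 50 lay below and 18 above all LF/LCL cows, against 40.9% and 42.6% of all genes tested. Regulators of the ciliated cell programme gave 8 tested of 11, of which 5 passed as higher in limma without cow 489215. FOXJ1, the transcription factor that directs motile cilium genes, had 6276, 5421 and 3436 normalised reads in LF/LCL cows 617, 79 and 527, and 12042, 2609 and 11225 in SF/SCL cows 856, 489215 and 97. Its order of cows, with cows 856 and 97 highest and cow 489215 lowest, was that of most heavy chains, and without cow 489215 its log2 difference was 1.25 (adjusted p = 0.0193 in limma). Other genes of ciliated cells, listed apart from the axonemal genes, gave 23 tested of 24. Without cow 489215, limma called 13 of them higher and 0 lower. With all 6 cows, 7 were higher and 0 lower at an unadjusted p under 0.05 in limma, against 4.19% and 4.48% of all genes. In cow 489215, 12 of the 23 lay above and 4 below all LF/LCL cows.

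Cell type markers also differed between the cows. General epithelial genes, 19 of 19 tested, summed to 60215 to 83361 in the LF/LCL cows and to 91028, 97493 and 127041 in SF/SCL cows 856, 97 and 489215, with a median log2 difference of 0.57 and with 9 of 19 higher and 0 lower at an unadjusted p under 0.05 in limma. Without cow 489215, 7 of the 19 passed as higher in limma and 2 as lower, RAB25 at -1.71 and ST14 at -0.44 (adjusted p = 0.00205 and 0.0479). Thus cow 489215 had the highest sum of epithelial genes while it was the lowest for most members. The epithelial sums were led by a few abundant genes such as SPINT2 and EPCAM. The mean log2 value of the list, used for the epithelial scaling, was 11.36 and 11.44 in cows 856 and 97. It was 10.85 to 11.47 in the LF/LCL cows, highest in cow 617, and 11.88 in cow 489215. Smooth muscle genes, 13 of 13 tested, summed to 981992 to 1114730 in the LF/LCL cows, to 464639 and 516624 in cows 856 and 97, and to 1538950 in cow 489215. The sum in cow 489215 was led by a few abundant genes, with ACTA2 at 533926, while the list's median log2 difference from the LF/LCL mean there was -0.060, with 5 of 13 genes below and 6 above the LF/LCL range. Fibroblast genes, 12 of 12 tested, summed to 120739 to 162131 in the LF/LCL cows and to 75854, 77860 and 114240 in cows 856, 97 and 489215. Without cow 489215, 10 smooth muscle and 8 fibroblast genes passed as lower in SF/SCL in limma. Posterior HOX genes, which mark position along the reproductive tract, summed to 6793 to 11180 in the LF/LCL cows, to 2575 and 3881 in cows 856 and 97, and to 14037 in cow 489215. In each cow 3 or 4 of the 8 listed genes were at 0, and the sum was mostly HOXA9 and HOXA10. In cow 489215 HOXA9, at 7646, lay inside the LF/LCL range of 4524 to 8860. HOXA10 was at 5991 there, against 2094 to 2451 in the LF/LCL cows. Both genes were lower in cows 856 and 97 than in every LF/LCL cow. Of the 10 secretory epithelial genes, whose sum in cows 856 and 97 was mostly OVGP1, 4 were tested over all 6 cows, and they went both ways without cow 489215. PAX8 passed as higher, at 1.35, and FOLR1 as lower, at -2.23, in limma (adjusted p = 0.00352 and 0.0182). A further gene listed as FOLR1, tested only without cow 489215, also passed as lower, at -1.94 (adjusted p = 0.0287 in limma). Among secretory genes not tested, MSLN was at 17590 and 18098 in cows 856 and 97, 808 to 1871 in the LF/LCL cows and 2299 in cow 489215. MUC16 was at 4052 and 6906 in cows 856 and 97, 268 to 359 in the LF/LCL cows and 470 in cow 489215. KRT23 was higher in every SF/SCL cow than in every LF/LCL cow, and LTF in cows 856 and 97 lay inside the LF/LCL range. The 6 mesothelial genes also diverged: WT1 was at 1180 to 1302 in the LF/LCL cows, 8611 and 7984 in cows 856 and 97 and 1037 in cow 489215. PRG4, the one that was tested over all 6 cows, had a log2 difference of -1.72 (adjusted p = 0.454 in limma). Without cow 489215 it was at -2.15 (adjusted p = 0.0233 in limma). In that fit WT1, at 2.73, and LRRN4, at -4.91, were also tested and passed (adjusted p = 0.000534 and 0.00540 in limma). Without cow 489215, limma called 4 of 9 endothelial genes lower and 0 of 11 leukocyte genes in either direction. The part of these differences in tissue make-up or sampling position in the members' values was not tested.

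Scaled to the epithelial markers, the members had 17 of 37 differences above 0 over all 6 cows, and 0 at an unadjusted p under 0.05 in limma. Without cow 489215, the same scaling put the members' median log2 difference at 0.62 and that of all genes at -0.26, with 36 of 37 members above 0. In that fit 11 members passed as higher in limma, against 3.13% of genes: DNAH1, DNAH5, DNAH9, DNAH10, DNAI1, DNAI2, ROPN1L, RSPH4A, RSPH9, CCDC39 and ZMYND10. No member passed as lower, against 8.58% of genes.

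**Figure D4:**
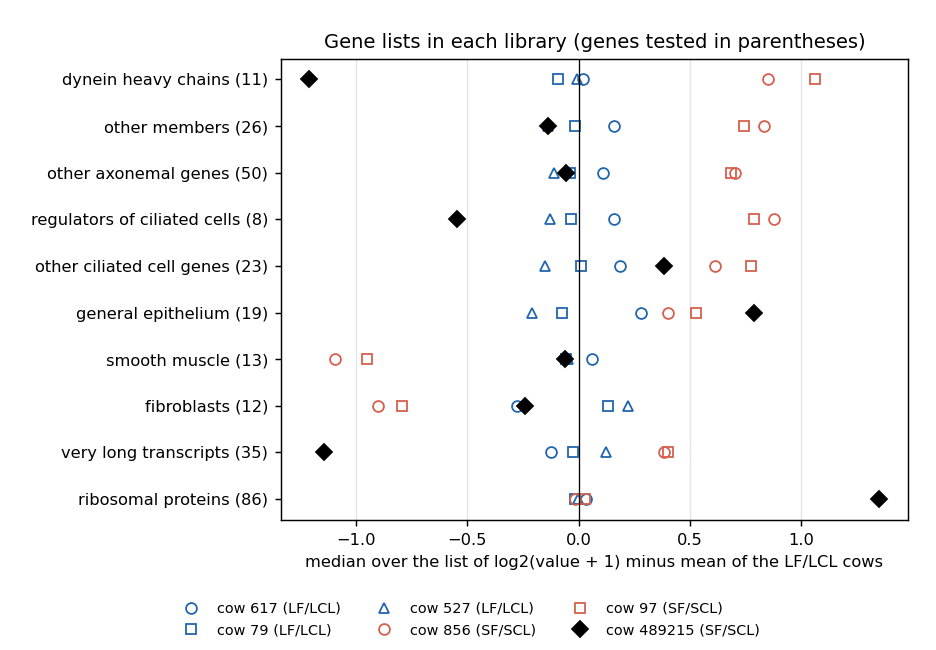
Median over each gene list of log2(value + 1) minus the LF/LCL mean (horizontal axis), 1 point per cow. Cow 489215 lies near -1.21 for dynein heavy chains and at 0.79 for epithelial genes, and cows 856 and 97 lie on the positive side for the members, the other cilia lists and the epithelium.

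The 4 members that were not tested had almost no reads. PIFO, a gene of the ciliary base, had 0 reads in every cow, which allows a value of up to 2.28 in cow 856 and 3.99 in cow 489215, taking 3 reads as the floor of a library. DNAH6, an inner arm heavy chain, had 1 read in LF/LCL cow 79 and 0 in the other 5. TEKT5 and RSPH6A, members known mostly from sperm, were at 0 to 1.52 and 0 to 2.17 normalised reads. No group difference was detectable for these genes from so few reads.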

How the data were processed

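Polyadenylated RNA from the isthmus of 6 cows, 1 library per cow, had been sequenced as paired ends. The authors filtered the reads, aligned them to the masked bovine genome with TopHat2 2.0.8 and Bowtie2 2.1.0, counted, with HTSeq 0.5.4p2, the reads that mapped to 1 place in each Ensembl gene, and deposited signal values, which are counts divided by the DESeq 1.12.1 size factor of each library. Whether counting used the strand is not given in the sources used here, so reads of overlapping antisense genes cannot be told apart, and families of similar genes can share or lose reads when only unique alignments are counted. Every value was a whole multiple of 1 read within a tolerance of 0.05 (100% of 147696 values), and the reads were recovered from it. The totals were 23899117 to 34193164 reads.

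SF/SCL was compared with LF/LCL by limma 3.58.1 in R 4.3.3 (moderated statistics with a mean trend and robust variances) on log2(value + 1), two-sided, without covariates. Fold changes on this scale understate those of low genes. A gene was tested if its mean over the libraries exceeded both 5 and its SD, and p-values were adjusted by Benjamini-Hochberg over all 15387 genes with a threshold of 0.05. The recovered reads were tested with edgeR 4.0.16 (quasi-likelihood, TMM) and DESeq2 1.42.0. The test was checked on simulated data. Other settings were normalisation, pseudocounts of 0.5 and 5, filters, scaling to epithelial markers, array weights and leaving out each cow. The edgeR and DESeq2 fits and the epithelial scaling without cow 489215 were added after the data had been seen. For epithelial scaling, each library was divided by the level of its epithelial markers.

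Members and lists were chosen with earlier results of these data known. Values per cow are given for the member with the highest mean and that with the largest absolute log2 difference in each role, and for members with an unadjusted p under 0.05. DNAH5, DNAL1, CCDC40, FOXJ1 and the marker genes given by name were named after their values had been seen. The marker lists were other axonemal genes, cilia regulators, other ciliated cell genes, general and secretory epithelium, smooth muscle, fibroblasts, endothelium, leukocytes, mesothelium and posterior HOX genes, with ribosomal protein and very long genes as a check of libraries.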

Additional observations from a re-analysis of the deposited data

How the results depend on the processing

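The sequenced cows were few and selected, 4 members had too few reads for a test, and the calls rested on whether cow 489215 was included. The 0 genes past the adjusted threshold became 416 in DESeq2, 4581 with array weights (whose iteration did not reach its tolerance), 2805 in edgeR and 3938 in DESeq2 without cow 489215, and 1814 relative to the epithelial markers without that cow, and leaving out 1 cow at a time gave 0 to 2827, with the highest count without cow 489215. For the members past that threshold the counts in the same order were 3, 31, 25, 28 and 11, and 0 to 24 with 1 cow left out. The 5 members at an unadjusted p under 0.05 became 9 in DESeq2, 0 relative to the epithelial markers, 34 with array weights, 32 in edgeR and 33 in DESeq2 without cow 489215, and 17 relative to the epithelial markers without it, and 3 to 31 with 1 cow left out. The members' median log2 difference of 0.35 turned to -0.066 relative to the epithelial markers, and was 0.16 to 0.88 with 1 cow left out.

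Changes of sign among the 15 named members were DNAH9 (-0.13 relative to the epithelial markers, -0.20 without cow 97, 1.05 without cow 489215), DNAI2 (-0.10 relative to the epithelial markers, -0.18 without cow 856, 1.11 without cow 489215), SPAG16 (-0.013 without cow 856, 1.41 without cow 489215) and SPAG6 (-0.082 relative to the epithelial markers). DNAH7, negative over all cows, was -0.73 without cow 97, 0.020 in edgeR, 0.041 in DESeq2 and in edgeR with DESeq2 size factors, 0.42 without cow 489215, 0.59 with array weights, 0.45 both in edgeR and in DESeq2 without cow 489215, and 0.17 relative to the epithelial markers without it. The causes were not tested. Other pseudocounts, filters and TMM rescaling of the values kept all 15 on the same side. No paired analysis was possible because the cows of the 2 groups share no numbers.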

Other observations

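Among the regulators of the ciliated cell programme, 3 genes that act early in multiciliogenesis and did not pass the filter on spread were highest in cow 856, and they are named after their values were seen. CCNO, needed for centriole amplification, had 72.2, 8.45 and 18.4 normalised reads in LF/LCL cows 617, 79 and 527, and 306, 176 and 66.1 in SF/SCL cows 856, 489215 and 97. MCIDAS, a coactivator that starts the programme, had 12.6, 0.939 and 1.76 in LF/LCL and 85.1, 10.7 and 15.2 in SF/SCL, in the same order of cows. FOXN4, a transcription factor of the same stage, had 12.6, 0 and 1.76 in LF/LCL and 75.2, 0 and 13.0 in SF/SCL. CCNO was also high in cow 489215, while MCIDAS and FOXN4 were not above cow 97 there. In contrast, cows 856 and 97 were close for the axonemal members. No test was made on these genes.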
